A study of Arabidopsis thaliana with 12 samples.

Results

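An Arabidopsis thaliana line built to express a fragment of CPR5 on demand was set against wild type before the fragment had been called for. The comparison covered 6 of the study's 12 ATH1 microarrays: 3 from leaves of the line carrying the Dex:YFP-CPR5-C transgene and sprayed with water, and 3 from wild-type leaves sprayed with water. Both genotypes are in the Col-0 background. The transgene puts YFP and the C-terminal part of CPR5 behind a promoter that dexamethasone switches on, so a water spray leaves the line uninduced. Mature leaves of 4-week-old plants were sprayed, and RNA was taken 24 hours later. The other 6 arrays hold the same line and wild type sprayed with 50 µM dexamethasone, with 3 arrays each. The labels call the 3 arrays of each group biological replicates. Whether the line goes back to 1 transformant, and whether plants were pooled for an array, is not given in the sources used here. Below, CPR5-C stands for the transgenic line, and water leaves for leaves sprayed with water.

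CPR5 sits in the membrane ring of nuclear pores, and its loss is known to give lesions, raised immunity and early senescence in this plant. According to the study's design text the C-terminal fragment interferes with the native protein. Dexamethasone systems of this kind rest on a chimeric transcription factor that stays inactive until it binds the steroid. Such a system can leak without the inducer, and a line can differ from wild type in other ways as well, so water-sprayed transgenic leaves are the background against which an induced response is read. Neither leakage nor the site of insertion was tested here.

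The deposited log2 signals had been centred, probe set by probe set, on their median across the 12 arrays. They give differences between groups but no absolute level, so the labelled tissue could not be checked against the level of leaf genes. Without the 64 control probe sets, 22746 entered a test with limma, and those with an adjusted p under 0.05 are referred to as called. Centred signals had an SD of 0.131 to 0.141 within a CPR5-C water array and of 0.194 to 0.228 within a wild-type water array. The SD was 0.677 to 0.693 for CPR5-C with dexamethasone and 0.137 to 0.164 for wild type with dexamethasone, so the wild-type water arrays stood farther from the centre than the other 6 arrays without an induced transgene. No probe set was named for CPR5 in the table used here, nor for PR1, PR2, PR5, ICS1, PAD4, EDS1 or WRKY70, so neither the transgene nor these defence genes were analysed. Genes with a role in plants named below are described from general knowledge, and loci without a gene name are given by locus only.

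Uninduced CPR5-C leaves differed from wild-type leaves in a modest share of genes, mostly by small amounts. The largest falls among genes with a symbol were those of EXLA1, of a family linked to wall loosening, and EXO, which acts in cell expansion. Genes of starch metabolism, sulfate assimilation, glucosinolate synthesis and glycosyl transfer were among the rises. Against the wild type sprayed with dexamethasone, the sulfate gene APS3 was the only call among the listed genes of these kinds. The starch and sulfate lists were drawn up after the values had been seen. In all 1610 of 22746 probe sets were called (7.08%), of which 967 were higher (4.25%) and 643 lower (2.83%) in CPR5-C water leaves. The median called rise was 0.39 on the log2 scale, or 1.31-fold, and the median called fall was -0.46, or 1.37-fold. Differences of at least 1 were found for 23 probe sets that were higher (0.101%) and 67 that were lower (0.295%). The called differences ran from -2.59 to 2.01, and the median over all probe sets was 0.01.

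Of the 1610 called probe sets, 1603 had no overlap between the 3 CPR5-C and the 3 wild-type arrays, as had 5658 (24.9%) of all probe sets. A gene symbol from the annotation table stood behind 775 of the calls, of which 632 had only a locus name. A further 26 calls matched several genes and 809 matched none in the table. Among the 20 largest rises 12 were unnamed, and among the 20 largest falls 10. The split between rises and falls depended on the scaling: 60.1% of calls were higher as deposited, but 34.0% of 462 calls were higher when each array was scaled to its poly-A spike controls. With an array left out the number of calls ranged from 900, without CPR5-C water replicate 3, to 1459, and it was 922 without CPR5-C water replicate 2 and 1019 without wild-type water replicate 3.

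**Figure D1:**
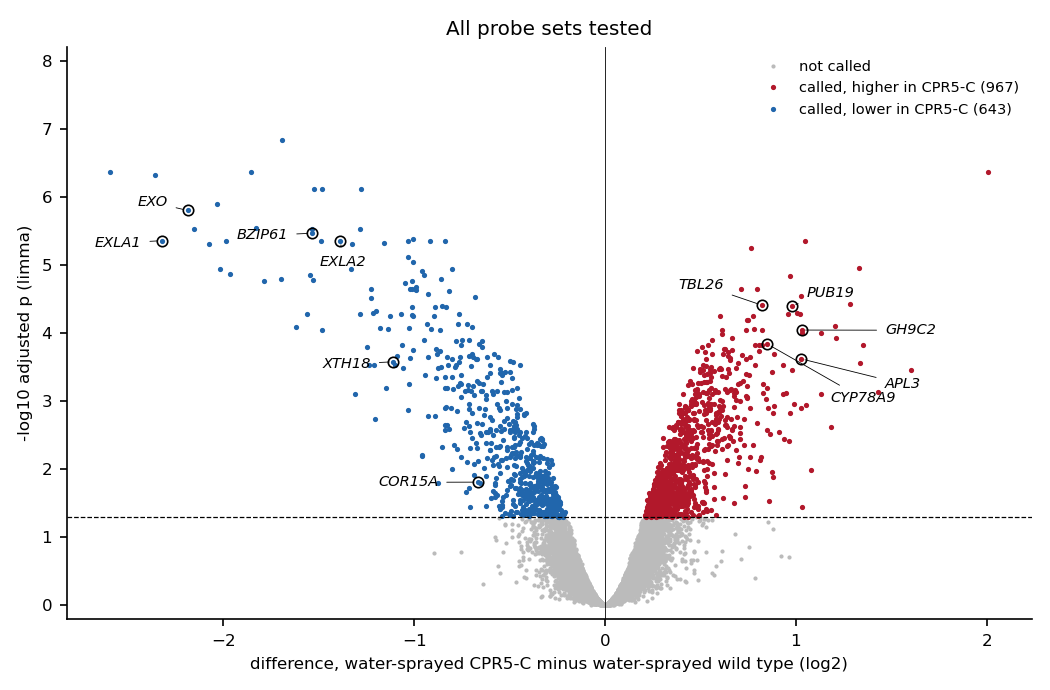
Difference between water-sprayed CPR5-C and water-sprayed wild-type leaves (log2, x axis) against the -log10 of limma's adjusted p (y axis) for all 22746 probe sets. Red points are the 967 called higher and blue points the 643 called lower in CPR5-C, the dashed line is the threshold of 0.05, and rings mark named genes; falls reach farther from 0 than rises.

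Falls among genes with a symbol were led by EXLA1 and EXO. EXLA1, an expansin-like gene of a family linked to wall loosening, had centred log2 signals of 0.60, 0.22 and 0.27 in CPR5-C water leaves, against 2.64, 2.66 and 2.77 in wild-type water leaves. All 3 CPR5-C arrays lay far below all 3 wild-type arrays. The fall was 5.01-fold, a difference of -2.32 with a fitted standard error (SE) of 0.18 (limma, adjusted p = 4.41e-06, n = 3 arrays per group). EXO, or EXORDIUM, a secreted protein that acts in brassinosteroid-dependent cell expansion, had 0.64, 0.94 and 0.28 in CPR5-C water leaves, against 2.79, 2.73 and 2.91 in wild-type water leaves. Here too the groups were wide apart, and EXO was 4.56-fold lower (-2.19, SE 0.15, limma adjusted p = 1.58e-06). A related expansin-like gene, EXLA2, had -0.02, 0.28 and -0.12 in CPR5-C water leaves, against 1.38, 1.33 and 1.60 in wild-type water leaves. It was 2.62-fold lower (-1.39, SE 0.11), again without overlap.

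Of the 19 expansin and expansin-like probe sets, 3 were lower and 1 was higher, against 2.83% and 4.25% of all probe sets. The third fall was EXLA3 (-0.39), so the 3 EXLA genes all fell. The rise was EXPA4 (0.56), an alpha-expansin, and the median of the family was -0.04. EXPA8 (-0.45, limma adjusted p = 0.219), EXPB1 (-0.30, adjusted p = 0.505) and EXPB3 (0.42, adjusted p = 0.128) did not pass the test, although EXPB3 passed without CPR5-C water replicate 1 (0.29 to 0.56 with an array left out). The call of EXLA3 was lost without CPR5-C water replicate 2 or wild-type water replicate 3 (range with an array left out -0.44 to -0.33), and those of EXLA3 and EXPA4 were lost with spike scaling.

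Enzymes that cut and rejoin xyloglucan, the XTH family, had 3 falls and 0 rises among 10 measured members, with a median of -0.17, against 2.83% falls and 4.25% rises over all probe sets. XTH18 had 0.45, -0.12 and 0.01 in CPR5-C water leaves, against 1.10, 1.14 and 1.43 in wild-type water leaves. The highest CPR5-C array stayed below the lowest wild-type array, and the gene was 2.16-fold lower (-1.11, SE 0.14, limma adjusted p = 0.000264). XTH16 (-0.57) and EXGT-A3 (-0.50), which is XTH27, fell as well. XTH19, next to XTH18 in name, was at -0.45 and did not pass (limma adjusted p = 0.265).

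Other wall enzymes moved in both directions. The pectin methylesterase ATPMEPCRB, also called PME41, had 0.14, 0.05 and -0.03 in CPR5-C water leaves, against 0.96, 0.83 and 1.43 in wild-type water leaves. It was 2.03-fold lower (-1.02, SE 0.13), with all CPR5-C arrays below all wild-type arrays. The other 2 called members of the 5 pectin methylesterases were higher, PME61 at 0.76 and PMEPCRF at 0.32. CSLA03, a member of the mannan synthase family, had 0.24, 0.14 and 0.06 in CPR5-C water leaves, against 0.86, 1.09 and 1.11 in wild-type water leaves. It fell by 0.87 (SE 0.11), and CSLC04, of the xyloglucan backbone synthases, fell by 0.28, while the other 6 cellulose synthase-like genes measured did not pass. Rises made up 4.25% and falls 2.83% of all probe sets. The lists of pectin methylesterases and cellulose synthase-like genes were drawn up after the values had been seen. The calls of PMEPCRF and CSLC04 were lost with spike scaling and when any of 4 arrays was left out (PMEPCRF 0.29 to 0.35, CSLC04 -0.36 to -0.23).

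GH9C2, an endoglucanase of the cellulase family, was the named wall gene with the largest rise. Its centred signals were 0.19, 0.42 and 0.37 in CPR5-C water leaves, against -0.45, -0.88 and -0.78 in wild-type water leaves. The groups did not overlap, and the rise was 2.04-fold (1.03, SE 0.11, limma adjusted p = 9.04e-05). The TBL family, whose studied members acetylate wall polysaccharides, had 4 rises and 2 falls among 24 probe sets, against 4.25% and 2.83% of all, and the list was drawn up after the values had been seen. TBL26 led the rises with 0.30, 0.50 and 0.47 in CPR5-C water leaves, against -0.48, -0.42 and -0.30 in wild-type water leaves. That was a rise of 0.82 (SE 0.08), and TBL38 (0.46), TBL41 (0.30) and TBL16 (0.27) rose less, while TBL45 (-0.62) and TBL36 (-0.54) fell. Apart from TBL26, each of these TBL calls was lost when at least 2 of the 6 arrays were left out in turn. Those of TBL38, TBL41 and TBL16 were also lost with spike scaling.

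**Figure D2:**
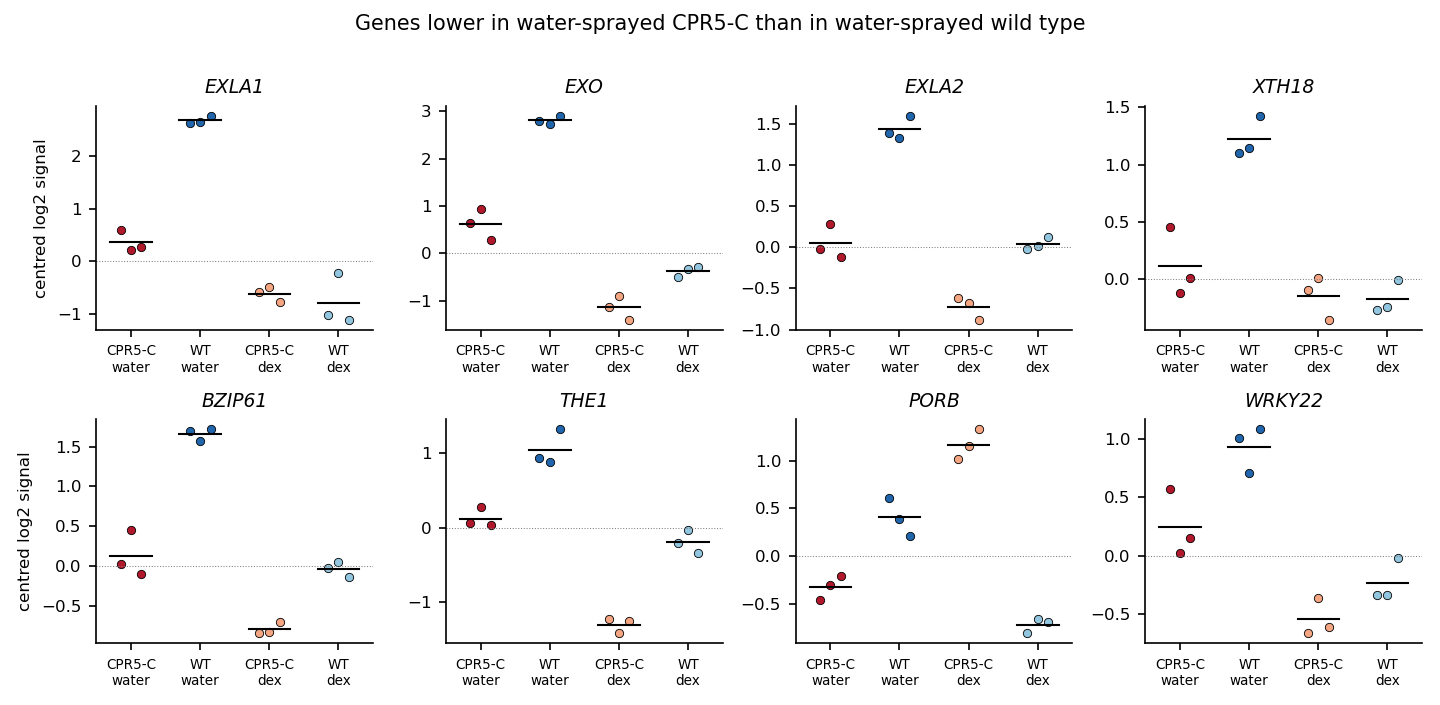
Centred log2 signal (y axis) of 8 genes on each array, with the 4 groups along the x axis (CPR5-C water, wild-type (WT) water, CPR5-C dexamethasone (dex), WT dexamethasone); points are arrays and bars are means of 3. In all 8 panels the WT water points lie above the CPR5-C water points, and in all but PORB they are the highest of the 4 groups.

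THE1, a receptor kinase that senses the state of the wall, had 0.07, 0.28 and 0.03 in CPR5-C water leaves, against 0.94, 0.88 and 1.32 in wild-type water leaves. It was 1.90-fold lower (-0.93, SE 0.12, limma adjusted p = 0.000223), and no array of one genotype reached those of the other. RALF peptides are secreted ligands of the receptor kinase family to which THE1 belongs. Of 11 RALF-like genes measured 2 fell, RALFL22 (-0.66) and RALFL33 (-0.48), and 0 rose, with a median of -0.03. Of 15 tetraspanins, membrane proteins of vesicles and cell surfaces, TET10 (-0.48) and TET8 (-0.39) fell and 0 rose, with a median of -0.07. Over all probe sets 2.83% fell and 4.25% rose, and the RALF and tetraspanin lists were drawn up after the values had been seen. SKU5, a glycosylphosphatidylinositol-anchored protein of directional growth, fell by 0.39. The call of TET8 was lost when any of 4 arrays was left out (-0.48 to -0.32) and that of SKU5 without CPR5-C or wild-type water replicate 3 (-0.47 to -0.31), and both were lost with spike scaling.

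Of 7 bZIP transcription factors 3 fell and 1 rose, against 2.83% falls and 4.25% rises over all probe sets. This list was drawn up after the values had been seen. BZIP61 had 0.03, 0.45 and -0.10 in CPR5-C water leaves, against 1.69, 1.58 and 1.72 in wild-type water leaves. All CPR5-C arrays were more than 1 unit below the wild-type arrays, and the gene was 2.90-fold lower (-1.54, SE 0.11, limma adjusted p = 3.42e-06). BZIP34 (-0.63), known in Arabidopsis for its part in pollen development, and BZIP53 (-0.54), a regulator of amino acid metabolism under low energy, fell too. The membrane-anchored stress factor BZIP17 rose (0.36), though its call was lost with spike scaling. The other 3, BZIP60, BZIP24 and BZIP28, did not pass. AKINBETA1, a subunit of the energy-sensing kinase SnRK1, fell by 0.84 (SE 0.14). The drought and cold factor TINY2 rose by 0.63 (SE 0.09), and tny, the other ERF or DREB gene found by its symbol, was at -0.11 (limma adjusted p = 0.643). Members of that family known in the table only by locus were not counted.

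Immune transcription factors were measured in small numbers. WRKY22, which acts in pattern-triggered immunity, the response to conserved microbial molecules, had 0.57, 0.02 and 0.15 in CPR5-C water leaves, against 1.01, 0.71 and 1.08 in wild-type water leaves. The groups did not overlap, although the highest CPR5-C array came close to the lowest wild-type array, and the gene was 1.61-fold lower (-0.68, SE 0.14, limma adjusted p = 0.00848). WRKY53, a factor of senescence and salicylic acid responses, had 0.58, 0.12 and 0.15 in CPR5-C water leaves, against 1.02, 0.48 and 0.66 in wild-type water leaves. Its groups overlapped, and the difference of -0.44 did not pass (limma adjusted p = 0.0798). ZAP1, or WRKY1, rose slightly (0.29), a call that was lost with spike scaling, and the other 4 WRKY factors measured did not pass. Of all probe sets 4.25% rose and 2.83% fell. The call of WRKY22 was lost without CPR5-C water replicate 2 (-0.57) and with quantile normalization, while WRKY53 passed without CPR5-C water replicate 1 (-0.58) or wild-type water replicate 2 (-0.55).

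The defence lists otherwise held few calls, but most of their genes had no named probe set, so they say little about immunity as a whole. Measured were 7 of 26 genes of pattern-triggered immunity, 5 of 25 of salicylic and pipecolic acid and 3 of 29 jasmonate genes. The called share of all probe sets was 7.08%. In pattern-triggered immunity WRKY22 was the only call among 7 genes, and the receptor EFR (-0.03), the kinase BIK1 (0.08) and the ubiquitin ligases PUB22 (-0.25) and PUB23 (-0.44) did not pass, although PUB23 passed without wild-type water replicate 1 (-0.60 to -0.31 with an array left out). None of the 5 genes of salicylic acid and pipecolic acid synthesis and signalling passed, among them SAG101 (-0.05), UGT76B1 (-0.02) and the methyltransferase BSMT1 (0.03), and their differences ran from -0.12 to 0.03. None of 3 jasmonate genes, 3 senescence genes, 4 genes of oxidative stress or 4 of endoplasmic reticulum chaperones and signalling passed. SAG29, a sugar transporter that marks senescence, had values of -0.16, -0.01 and 0.01 in CPR5-C water leaves, against -0.42, 0.01 and -0.16 in wild-type water leaves. These overlapped, and the difference was 0.14 with a 95% interval of -0.15 to 0.43. MYC4, a transcription factor of jasmonate signalling that belonged to none of these lists, rose by 0.47 (SE 0.07), and OPCL1, an enzyme of jasmonate synthesis, by 0.31 (SE 0.08). Both calls were lost with spike scaling, and that of OPCL1 when any of 5 arrays was left out (0.24 to 0.35).

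Touch and wound genes, which respond within minutes, held 0 calls among the 6 measured of 37 listed, with differences between -0.32 and 0.24. They included STZ (-0.10), CML23 (-0.21) and ORA47 (0.24). Against the wild type sprayed with dexamethasone 2 of the 6 were called higher in CPR5-C water leaves, and the median was 0.29. Of 8 calmodulin-like genes, calcium sensors that overlap with this list, 7 lay below 0 but 0 passed, with a median of -0.13. CML38 was lowest (-0.32, limma adjusted p = 0.338) and passed without CPR5-C water replicate 1 (-0.56).

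Of 23 chlorophyll synthesis genes listed 7 were measured. These 7 all lay below 0 in CPR5-C water leaves, and 3 of them passed as falls, against 2.83% of all probe sets. PORB, the light-dependent protochlorophyllide reductase, had -0.46, -0.30 and -0.21 in CPR5-C water leaves, against 0.61, 0.39 and 0.21 in wild-type water leaves. Every CPR5-C array was below 0 and every wild-type array above it, and PORB was 1.66-fold lower (-0.73, SE 0.11, limma adjusted p = 0.000708). CHLI2, a subunit of magnesium chelatase, fell by 0.49, and HEME2, uroporphyrinogen decarboxylase, by 0.29. The remaining 4 did not pass: HEME1 (-0.22, limma adjusted p = 0.0853), HEMB1 (-0.20, adjusted p = 0.181), CHLM (-0.20, adjusted p = 0.0619) and GSA1 (-0.07, adjusted p = 0.703). The list's median was -0.22, against 0.01 over all probe sets, and the call of HEME2 was lost when any of 5 arrays was left out (-0.37 to -0.22) and with spike scaling. Against the wild type sprayed with dexamethasone 0 of the 7 were called, with a median of -0.05. There PORB was at 0.39 and did not pass (limma adjusted p = 0.0996).

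Genes of the photosynthetic apparatus itself held no such calls, though few of the nuclear-encoded ones were measured. Of 46 nuclear-encoded light reaction genes listed 7 were measured. None of these passed, and their differences lay between -0.07 and 0.13 with a median of 0.00. They included the antenna genes LHCB4.1 (-0.03) and LHCB4.2 (-0.07) and the photosystem subunits PSAN (-0.02) and PSBW (0.00). The 3 Calvin cycle genes measured of 13 listed, SBPASE (-0.04), PRK (0.02) and RCA (0.03), did not pass either. Of 69 probe sets for plastid-encoded genes 62 lay below 0, with a median of -0.11 and a range of -0.40 to 0.29, and 0 passed in limma, while 8 had an unadjusted p under 0.05.

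COR15A, a chloroplast protein that protects membranes from freezing and answers to cold and abscisic acid, had -0.77, -0.67 and -0.68 in CPR5-C water leaves, against 0.13, -0.31 and 0.05 in wild-type water leaves. It was 1.59-fold lower (-0.66, SE 0.15, limma adjusted p = 0.0155), and the groups did not overlap. Its neighbour in the genome, COR15B, fell by 0.37. Of the 24 cold and abscisic acid genes listed 4 were measured, and 2 of these fell, against 2.83% of all probe sets. COR47 (-0.31, limma adjusted p = 0.134) and the dehydrin LTI30 (0.10, adjusted p = 0.857) did not pass. Each of these calls was lost when any of 4 arrays was left out, with COR15A between -0.80 and -0.58 and COR15B between -0.43 and -0.30. The call of COR15B was also lost with spike scaling. LCR69, of a family of small cysteine-rich peptides related to defensins, had -0.57, -0.56 and -0.99 in CPR5-C water leaves, against 0.23, -0.01 and 0.32 in wild-type water leaves. It was 1.85-fold lower (-0.89, SE 0.12, limma adjusted p = 0.00046), with every CPR5-C array below every wild-type array.

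Of 23 starch genes listed 5 were measured, and 2 of these rose, against 4.25% of all probe sets. APL3, a large subunit of ADP-glucose pyrophosphorylase, the first step of starch synthesis, had -0.21, 0.50 and 0.30 in CPR5-C water leaves, against -0.81, -0.87 and -0.81 in wild-type water leaves. The CPR5-C arrays were spread but all higher, and the rise was 2.04-fold (1.03, SE 0.13, limma adjusted p = 0.000239). A glucan water dikinase gene listed as PWD, of the family that phosphorylates starch for breakdown, rose by 0.88 (SE 0.14). The other 3 starch genes measured, SBE2.2, APL4 and DPE1, did not pass. Against the wild type sprayed with dexamethasone 0 of the 5 starch genes were called, with a median of 0.09. There APL3 was at 0.23 (limma adjusted p = 0.497). SWEET13, a sucrose exporter, had 0.29, 0.22 and 0.54 in CPR5-C water leaves, against -0.22, -0.36 and -0.34 in wild-type water leaves. It rose 1.57-fold (0.65, SE 0.09, limma adjusted p = 0.000681). It was the only call among 16 SWEET transporters, against 7.08% of all probe sets, and their median was -0.03.

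Of 15 genes of sulfate assimilation and methionine synthesis 5 were measured, and 4 of these were higher, against 4.25% of all probe sets. This list, like that of starch, was drawn up after values of these arrays had been seen. APS3, an ATP sulfurylase that activates sulfate, had 0.51, 0.47 and 0.64 in CPR5-C water leaves, against -0.07, -0.12 and -0.05 in wild-type water leaves. The arrays of a genotype lay close together and apart from those of the other, a 1.54-fold rise (0.62, SE 0.08, limma adjusted p = 0.00020). Sulfite reductase SIR rose by 0.40, glutathione reductase GR1 by 0.27 and cystathionine beta-lyase CBL by 0.25, while APS4 was at 0.12 (adjusted p = 0.493). The calls of SIR, GR1 and CBL were lost with spike scaling, and GR1 (0.23 to 0.29) and CBL (0.23 to 0.28) also lost theirs when single arrays were left out. Against the wild type sprayed with dexamethasone APS3 was the only call of the list, whose median was 0.097.

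Glucosinolates are sulfur-rich defence compounds of cabbage relatives. Of 4 measured genes of their synthesis and transport, from a list of 24, 2 rose, against 4.25% of all probe sets. All 4 lay above 0. UGT74B1, which adds glucose in their core synthesis, had 0.37, 0.45 and 0.70 in CPR5-C water leaves, against -0.16, -0.18 and -0.30 in wild-type water leaves. It rose 1.65-fold (0.72, SE 0.09, limma adjusted p = 0.000207), without overlap. AT2G31790, known as UGT74C1 and acting on methionine-derived glucosinolates, rose by 0.52. The transaminase BCAT4 had the largest value of the list, 0.78, but did not pass (limma adjusted p = 0.392), and the transporter GTR1 was at 0.12 (adjusted p = 0.313). GTR2, the second glucosinolate transporter, which was not on the list, rose by 0.41 (SE 0.07). The calls of AT2G31790 and GTR2 were lost with spike scaling, which left UGT74B1 as the only call of the list, while BCAT4 passed in a fit of the 6 water arrays alone and without the CPR5-C dexamethasone arrays. Against the wild type sprayed with dexamethasone 0 of the 4 listed genes were called, with a median of 0.18.

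UDP-glycosyltransferases, enzymes that attach sugars to hormones and secondary compounds, had 7 rises and 3 falls among 51 measured members, against 4.25% rises and 2.83% falls over all probe sets. Besides UGT74B1 the rises included UGT78D1 (0.68) and UGT78D2 (0.38), which glycosylate flavonols, UGT71B1 (0.61), UGT84A3 (0.56), UGT72B3 (0.56) and GT72B1 (0.53). The falls were UGT76C2 (-0.64), which inactivates cytokinins, UGT73B1 (-0.47) and UGT85A2 (-0.28). The family's median was 0.06, with 34 of 51 above 0. Against the wild type sprayed with dexamethasone 0 of the 51 were called, with a median of 0.04. With spike scaling the calls of UGT72B3, GT72B1, UGT84A3, UGT78D2, UGT73B1 and UGT85A2 were lost, and that of UGT85A2 was lost with any array left out (-0.30 to -0.23). Cytochrome P450 genes had 3 rises and 0 falls among 22 (4.25% and 2.83% over all probe sets), led by CYP78A9, a regulator of organ size. Its signals of 0.77, 0.69 and 0.91 in CPR5-C water leaves stood against -0.05, -0.01 and -0.12 in wild-type water leaves. The arrays within each genotype were close, and the rise was 1.80-fold (0.85, SE 0.10, limma adjusted p = 0.000145). CYP71B26 (0.37) and CYP71B35 (0.23) rose less, and both calls were lost with spike scaling and when single arrays were left out (0.28 to 0.43 and 0.21 to 0.25).

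PUB19, a U-box ubiquitin ligase that acts in abscisic acid and drought responses, had -0.10, -0.12 and 0.10 in CPR5-C water leaves, against -1.04, -0.86 and -1.15 in wild-type water leaves. The groups were separated by more than the spread within either, and the rise was 1.97-fold (0.98, SE 0.10, limma adjusted p = 3.98e-05). Among the 9 U-box ligases PUB43 also rose (0.38) and 0 fell, against 4.25% rises and 2.83% falls over all probe sets. GIGANTEA (GI), a protein of the circadian clock and of photoperiodic flowering, had -0.14, -0.15 and 0.01 in CPR5-C water leaves, against -0.48, -0.78 and -0.65 in wild-type water leaves. It rose 1.46-fold (0.55, SE 0.10, limma adjusted p = 0.00431) and was the only gene of the clock list with a named probe set. Other rises of named genes outside the lists were GAMMA-VPE (0.81), a vacuolar processing protease, AGO7 (0.69), an Argonaute of trans-acting small RNA synthesis, and XERICO (0.52), which raises abscisic acid. The calls of GI, PUB43 and XERICO were lost with spike scaling.

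Hormone families showed scattered falls. Among 6 cytokinin response regulators ARR15 (-0.71, SE 0.12) and RR16 (-0.53) fell and 0 rose, and both belong to the type whose transcription cytokinin induces. Of 5 GH3 genes, which conjugate auxin or jasmonate to amino acids, GH3.9 fell (-0.61), and of 7 AUX/IAA repressors IAA18 fell (-0.29), while IAA29 (-0.43, limma adjusted p = 0.216) did not pass. The 3 SAUR genes measured and the single ethylene gene, EIN3 (0.10), did not pass. Over all probe sets 2.83% fell and 4.25% rose, and the response regulator list was drawn up after the values had been seen. The call of IAA18 was lost with spike scaling and when any of 4 arrays was left out (-0.33 to -0.26). Of the 3 nuclear pore genes NUP1 rose (0.35, limma adjusted p = 0.0439), while SEH1H (0.02) and NUP155 (0.03) did not pass, and the call of NUP1 was lost with spike scaling and when any of 5 arrays was left out (0.27 to 0.41).

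Proteins of the cytoskeleton were called in both directions. Of 14 TRM proteins, several of which are known to bind microtubules, TRM26 (-0.64) and TRM22 (-0.43) fell, and TRM18 (0.62) and TRM15 (0.34) rose. Of 10 NET proteins, which link actin to membranes, NET4B fell (-0.54) and NET1D (0.44) and NET3C (0.38) rose. Falls made up 2.83% and rises 4.25% of all probe sets. The TRM, NET and beta-glucosidase lists were drawn up after the values had been seen. Of 22 beta-glucosidases BGLU47 (0.71) and BGLU33 (0.45) rose and BGLU16 (-0.24) fell, while 1 of 13 glutathione transferases was called, GSTU16 (0.38), a share near the 7.08% of all probe sets. The calls of TRM22, TRM18, TRM15, NET1D, NET3C, BGLU33, BGLU16 and GSTU16 were lost with spike scaling, and that of TRM22 also without wild-type water replicate 3. With single arrays left out the call of BGLU16 was lost for 5 of 6 arrays (-0.29 to -0.20), those of NET4B (-0.70 to -0.44) and TRM15 (0.30 to 0.40) for 4, that of NET1D (0.33 to 0.51) for 3, that of BGLU33 (0.39 to 0.51) for 2 and that of GSTU16 without CPR5-C water replicate 3. None of 3 heat shock genes passed, although AT5G48570 was at 0.68 (limma adjusted p = 0.0903) and passed in a fit of the 6 water arrays alone and with array weights. Families with 1 named probe set held no call in the cell cycle inhibitor SIM (0.14), the flavonoid enzyme DFR (0.03), NAC014 (0.21) or the kinase ATMPK8 (0.10).

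**Figure D3:**
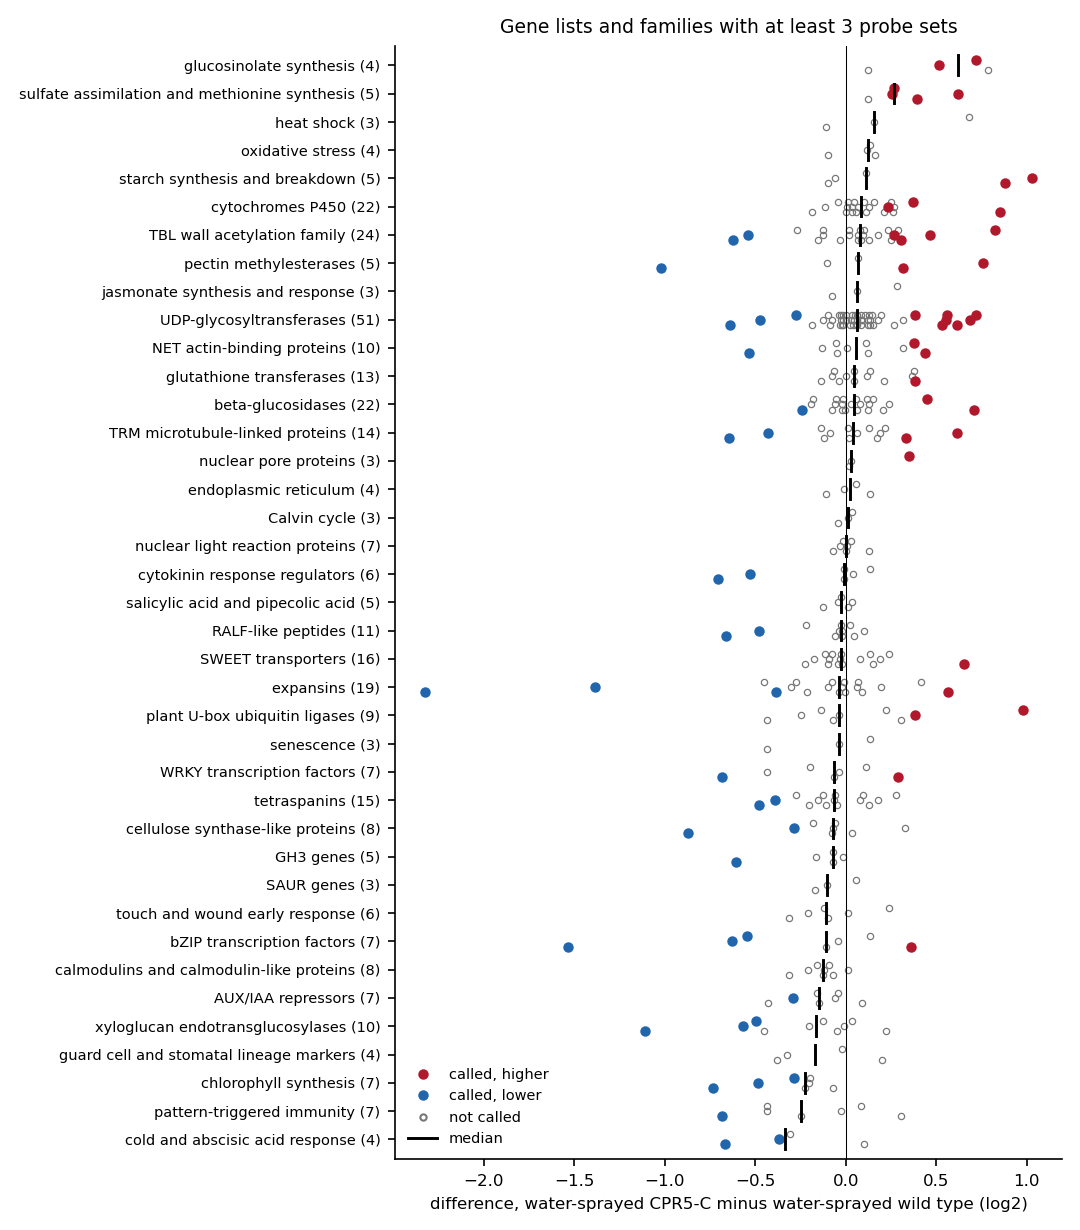
Differences between water-sprayed CPR5-C and water-sprayed wild-type leaves (log2, x axis) for the members of each gene list or family with at least 3 probe sets (rows, with the number measured). Filled points passed limma's test (red higher, blue lower), open points did not, and bars are medians; expansins reach farthest to the left, and glucosinolate and sulfate genes lie to the right of 0.

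Cell type markers were few, and none passed in the fit of 12 arrays. Of 4 guard cell and stomatal genes AT1G22690, or GASA9, was at -0.38 (limma adjusted p = 0.0677), STOMAGEN at -0.32 (adjusted p = 0.539), SPCH at -0.02 and FMA at 0.20, and AT1G22690 and STOMAGEN did pass in a fit of the 6 water arrays alone or without the CPR5-C dexamethasone arrays. The trichome gene TRY was at 0.22, the phloem transporter SWEET11 at -0.02 and the root hair expansin EXPA7 at 0.07, and no epidermis or flower marker had a named probe set. In whole leaves fewer cells of a type and less RNA per cell cannot be told apart. Of the 230 probe sets on the lists of pathways, cell types and families other than the added ones, 38 were called (16.5%), against 7.08% of all probe sets, and the lists were chosen with earlier results of these data known.

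Loci without a gene name made up most of the other large changes. AT1G50040 (-2.16), AT1G33760 (-2.07), AT1G77640 (-1.97), AT2G27080 (-1.83) and AT4G37240 (-1.79) fell most, each at least 3.45-fold. AT2G41640, AT2G30930, AT3G55840, AT3G19680, AT4G28085 and AT2G34510 fell by 1.56 to 1.29. Among called single-gene probe sets the largest rises were AT1G68600 (1.43, SE 0.21), AT3G15650 (1.34), AT5G11930 (1.33), AT3G49160 (1.18), AT1G76960 (1.08), AT4G33040 (1.05), AT1G64360 (1.03) and AT1G11700 (1.02). AT1G68600 had 0.34, 1.35 and 1.42 in CPR5-C water leaves, against -0.34, -0.35 and -0.49 in wild-type water leaves, so CPR5-C replicate 1 lay well below the other 2. AT3G14200 (0.89), AT4G29700 (0.88) and AT2G25625 (0.86) rose less. The calls of AT1G76960 (0.93 to 1.33), AT4G29700 (0.80 to 0.997) and AT2G25625 (0.75 to 0.996) were each lost without CPR5-C water replicate 2 or 3, and those of AT4G29700 and AT2G25625 also without wild-type water replicate 3.

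**Figure D4:**
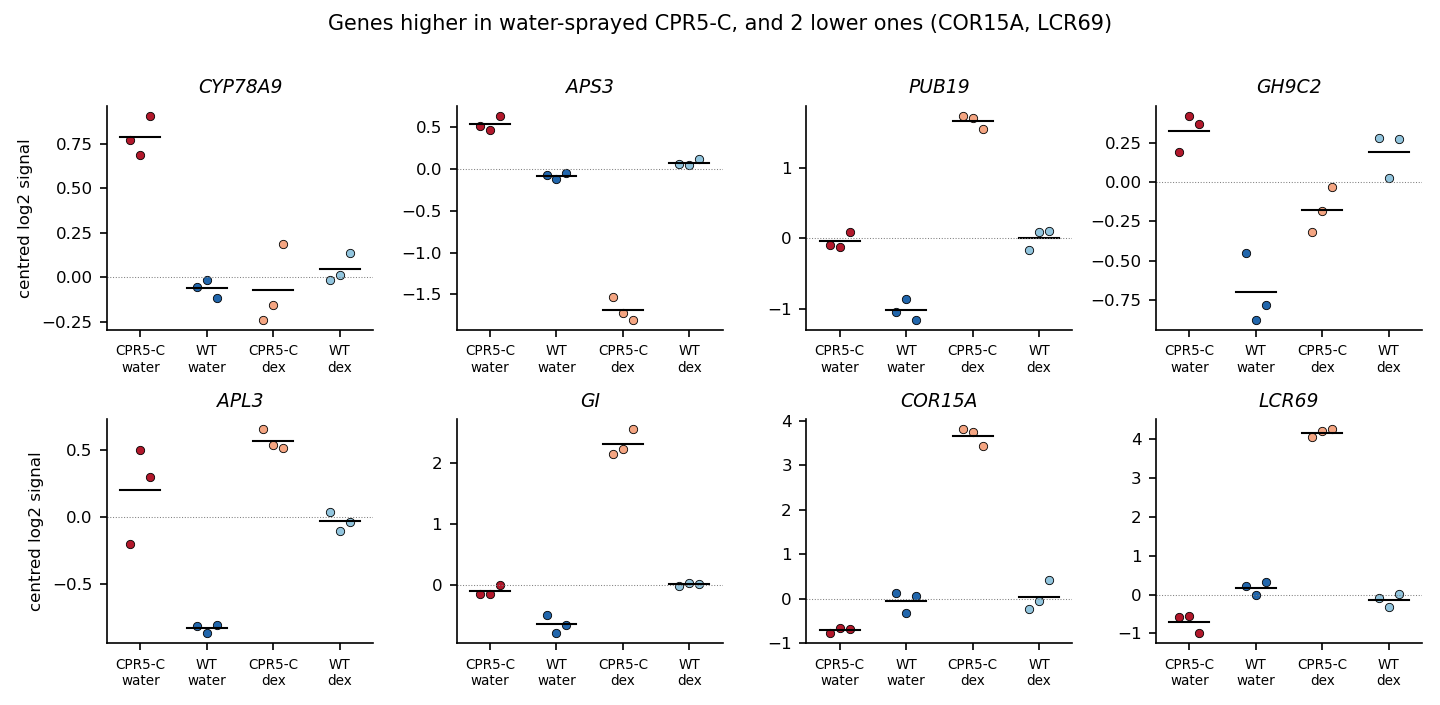
Centred log2 signal (y axis) on each array for 6 genes that were higher and 2 that were lower (COR15A and LCR69) in CPR5-C water than in wild-type (WT) water leaves, with the groups ordered CPR5-C water, WT water, CPR5-C dexamethasone (dex) and WT dexamethasone. Points are arrays and bars are means of 3; for CYP78A9, APS3, COR15A and LCR69 the CPR5-C water points also lie outside the WT dexamethasone points.

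The same CPR5-C water arrays were then set beside the other wild-type group, which had been sprayed with dexamethasone. This comparison shares the CPR5-C water arrays with the first, and the wild-type groups differ by the spray. In it 344 probe sets were called (1.51%), 253 higher (1.11%) and 91 lower (0.4%) in CPR5-C water leaves. Between wild-type leaves sprayed with dexamethasone and with water, which shares the wild-type water arrays with the first comparison, 2065 were called (9.08%), 1154 higher (5.07%) and 911 lower (4.01%). For several of the leading falls the CPR5-C water leaves lay between the wild-type groups or close to the wild type with dexamethasone. EXLA1 was at -1.02, -0.22 and -1.11 in wild-type dexamethasone leaves, and CPR5-C water leaves exceeded them by 1.15 (SE 0.18, limma adjusted p = 0.00395). EXO was likewise higher by 0.998 than in wild-type dexamethasone leaves, whose arrays had -0.51, -0.34 and -0.28. In both genes the order was therefore wild type with water, CPR5-C with water and wild type with dexamethasone, from high to low.

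Other leading genes were near the dexamethasone-sprayed wild type. The difference from it was 0.01 for EXLA2 (limma adjusted p = 0.982), 0.16 for BZIP61 (adjusted p = 0.608), 0.29 for XTH18 (adjusted p = 0.425) and 0.15 for ATPMEPCRB (adjusted p = 0.683). Among the rises it was -0.05 for PUB19 (adjusted p = 0.889), 0.01 for TBL26 (adjusted p = 0.985), 0.13 for GH9C2 (adjusted p = 0.696) and -0.11 for GI (adjusted p = 0.739). These p-values do not show that the levels were alike. For WRKY53, which did not pass against wild-type water leaves, CPR5-C water leaves were higher than wild-type dexamethasone leaves by 1.43 (SE 0.14, adjusted p = 0.000112). TET8 (0.999, adjusted p = 0.000113) was higher against the dexamethasone-sprayed wild type although it was lower against the water-sprayed one, and SWEET13 (-0.45, adjusted p = 0.0293) and MYC4 (-0.51, adjusted p = 0.00169) were lower although they were higher against the water-sprayed one. Why the wild-type groups stand on either side of CPR5-C water leaves was not tested.

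Some genes stood apart from wild type under either spray. On 726 probe sets (3.19%) the 3 CPR5-C water arrays lay above all 6 wild-type arrays, and on 627 (2.76%) below them. Of these, 45 were also called against both wild-type groups, 28 above and 17 below, and 26 of the 45 had no single gene in the table. CYP78A9 was higher by 0.85 than wild-type water leaves and by 0.74 than wild-type dexamethasone leaves, APS3 by 0.62 and 0.46, and AT1G59740, the transporter NPF4.3, by 0.64 and 0.65. COR15A was lower in CPR5-C water leaves, with differences of -0.66 from water and -0.75 from dexamethasone wild type, and so was LCR69, with -0.89 and -0.57. OPCL1 (0.31 and 0.46) was higher against both, and ETP2 (-0.29 and -0.36), an F-box protein of ethylene signalling, was lower, though the calls of both against wild-type water leaves were lost with spike scaling and with several arrays left out (OPCL1 0.24 to 0.35, ETP2 -0.36 to -0.24). The largest of these differences belonged to a probe set for which the table gives no gene. It had 0.98, 0.95 and 1.32 in CPR5-C water leaves, against -0.87, -0.98 and -0.94 in wild-type water leaves, a 4.02-fold rise, and it was higher by 1.33 than in wild-type dexamethasone leaves.

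Differences between the uninduced genotypes were also set beside those between the genotypes after dexamethasone, a comparison that shares no array with the first. It had 10786 calls (47.4%), with 5308 higher (23.3%) and 5478 lower (24.1%). Of the 967 probe sets higher in CPR5-C water leaves, 380 were higher after dexamethasone, 374 lower and 213 not called, with a median of 0.02. Of the 643 lower with water, 155 were higher after dexamethasone, 353 lower and 135 not called, with a median of -0.35. Across the 22746 probe sets, which are not independent and share the normalization of the series, the 2 sets of differences had Pearson r = 0.087 and Spearman rho = 0.097.

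The genes that differed most between the genotypes after dexamethasone had no common direction with water. Among the 100 probe sets with the largest rises after dexamethasone (at least 3.28), the median difference with water was 0.02, with 8 called higher and 8 lower. Among the 100 with the largest falls (at least 2.59), 13 were called higher and 13 lower with water, so the called share in both sets was above the 7.08% of all probe sets but without a leading direction. BGLU45, a beta-glucosidase, had 8.60, 8.61 and 8.47 in CPR5-C dexamethasone leaves. In CPR5-C water leaves it had 0.23, 0.14 and -0.01, against -0.15 and -0.11 on 2 arrays and a signal of almost 0 on the third in wild-type water leaves. The water groups overlapped only at the edge, and the difference of 0.21 did not pass (limma adjusted p = 0.130, 95% interval 0.04 to 0.37), against 8.62 between the genotypes after dexamethasone. SAG29 was at 0.14 with water and 6.40 after dexamethasone, and XTH19 at -0.45 and 5.69.

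For several genes the genotypes differed in opposite directions under the sprays. COR15A was lower by 0.66 in CPR5-C water leaves but higher by 3.62 in CPR5-C dexamethasone leaves than in the wild type with the same spray. LCR69 (-0.89 with water and 4.30 with dexamethasone), PORB (-0.73 and 1.89) and UPB1 (-0.82 and 2.77), a factor of root growth, had the same pattern. SWEET13 (0.65 with water and -3.29 with dexamethasone), APS3 (0.62 and -1.76), UGT74B1 (0.72 and -1.38), TBL26 (0.82 and -1.38) and BGLU47 (0.71 and -2.94) had the reverse. Both differences pointed the same way for PUB19 (0.98 and 1.66), GI (0.55 and 2.30), THE1 (-0.93 and -1.11) and CSLA03 (-0.87 and -2.60). The test of the difference itself, the interaction of genotype and spray in limma, was called for 8755 of 22746 probe sets (38.5%), with 4121 above 0 (18.1%) and 4634 below (20.4%). It was called for 22 of the 25 genes shown array by array, which were chosen by their values, most by the difference with water and BGLU45, SAG29 and XTH19 by the rise after dexamethasone, so that count is a description. THE1, WRKY22 and APL3 were the 3 that did not pass it.

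**Figure D5:**
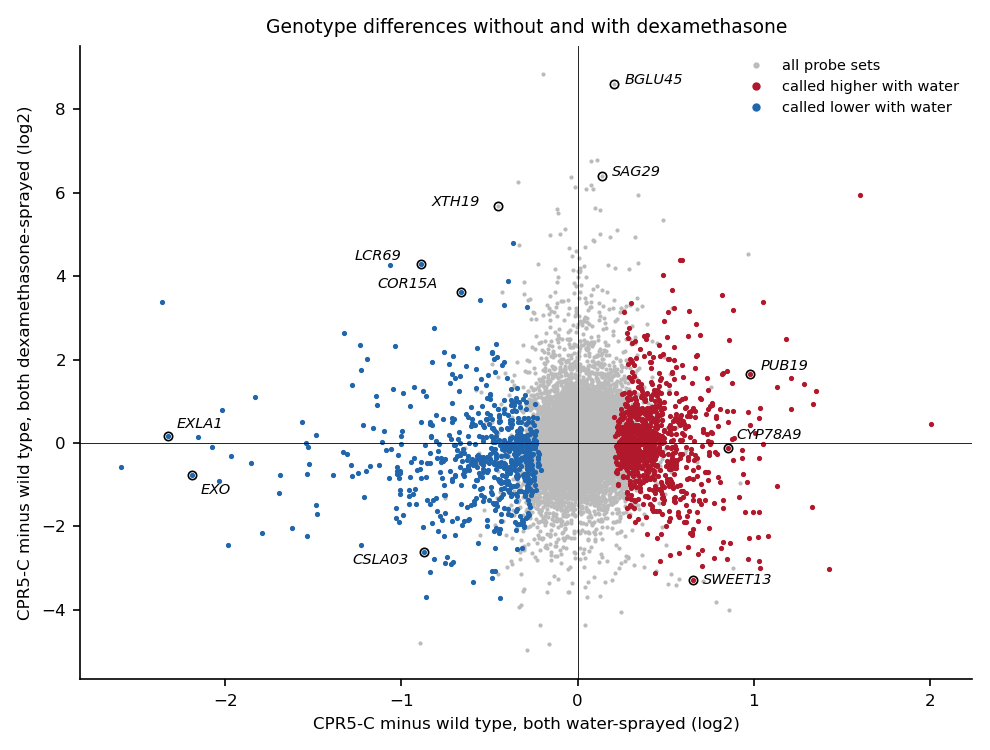
Difference between CPR5-C and wild type with water (log2, x axis) against the difference with dexamethasone (log2, y axis) for 22746 probe sets; red and blue points are those called higher and lower with water, and rings mark named genes. The points form a vertical cloud around 0, with BGLU45, SAG29 and XTH19 high on the y axis and near 0 on the x axis.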

How the data were processed

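Total RNA of mature leaves was amplified, biotin-labelled and put on Affymetrix ATH1 arrays, per the labels' protocols. The authors deposited log2 values from RMA, as the submitters' processing notes name it. The version of RMA is not given in the sources used here, nor is the log base, for which log2 is taken because RMA gives it. For all 22810 probe sets the median over the 12 arrays was 0 within 1e-06, so the deposited signals are centred. Names came from the platform's annotation, and a RefSeq gene table of TAIR10.1 gave current symbols (its coordinates were not used). Of the 22746 tested, 13513 had a single gene (13508 matched to a locus), 503 had several and 8730 had none. No sequence or genome was used.

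All comparisons came from 1 fit with limma 3.58.1 in R 4.3.3 (lmFit, eBayes) on the 12 arrays, with a mean per group and 5.79 prior and 8 residual degrees of freedom. Tests were two-sided, with Benjamini-Hochberg adjustment of p-values over all probe sets in each comparison. The fit was tested on simulated arrays. Arrays give no counts, so their number limits the precision. Tables and figures were made with Python 3.11.15, pandas 2.3.3 and matplotlib 3.10.9.

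The genes named were the 15 largest rises and 15 largest falls among called single-gene probe sets without overlap between the water groups, and up to 6 called members of each list, or the member with the smallest p where none was called. Genes named outside this rule (such as THE1, LCR69, SKU5, AKINBETA1, UPB1, MYC4, OPCL1, ETP2, GTR2, GAMMA-VPE, AGO7, XERICO and an unnamed probe set, and members of lists that did not pass) were chosen after their values were seen. The comparison, the 52 lists and families and the rule were chosen with earlier results of these data known, and 12 further lists (TBL, bZIP, RALF, TRM, NET, beta-glucosidases, pectin methylesterases, cellulose synthase-like, tetraspanins, response regulators, sulfate and starch) after the values of this comparison had been seen. Lists are described by counts and medians, without a set test.

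Same-numbered replicates of the water groups did not deviate together (correlations of deviations from the group means -0.18, -0.03 and 0.02), so the numbers were not taken as pairs. Alternatives were a block for the replicate number, fixed or random, the 6 arrays alone, a fit without the CPR5-C dexamethasone arrays, quantile normalization, median centring, scaling to 24 poly-A spike probe sets, a trended robust variance, array weights, single-gene probe sets alone, a two-sample test without moderation, other thresholds and each array left out in turn. They were run after seeing the data for the genes named outside the rule.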

Additional observations from a re-analysis of the deposited data

Results flagged for a closer look

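For 22 of the 25 genes shown array by array the difference between CPR5-C and wild type differed between the sprays, by limma's interaction test at adjusted p under 0.05, as it did for 38.5% of all probe sets. The genes were chosen by their values, most by the difference with water and BGLU45, SAG29 and XTH19 by the rise after dexamethasone, so the count is a description and no independent test. The values below are the genotype difference with dexamethasone minus that with water, on the log2 scale. The interaction uses the arrays of all 4 groups, so it shares the water arrays with the differences of the report.

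Values above 0 belonged to BGLU45 (8.41), SAG29 (6.26), XTH19 (6.15), LCR69 (5.19), COR15A (4.29), PORB (2.62), EXLA1 (2.49), GI (1.75), EXO (1.42), WRKY53 (1.37), XTH18 (1.13), BZIP61 (0.78), ATPMEPCRB (0.74), PUB19 (0.68) and EXLA2 (0.62). Among these, the transcription factor BZIP61 and the wall and expansion genes EXLA1, EXO, XTH18, ATPMEPCRB and EXLA2 were lower in CPR5-C with water. With dexamethasone they were less far below, or no longer below, wild type. In wild type all of them were lower with dexamethasone than with water, from -3.47 for EXLA1 to -1.17 for ATPMEPCRB. In CPR5-C the same comparison of sprays gave smaller falls, from -1.77 for EXO to -0.26 for XTH18. That of XTH18 did not pass (limma adjusted p = 0.149). Values below 0 belonged to SWEET13 (-3.94), APS3 (-2.38), TBL26 (-2.20), UGT74B1 (-2.10), CSLA03 (-1.73), GH9C2 (-1.40) and CYP78A9 (-0.96). Of these, CSLA03 alone was already lower in CPR5-C with water. Groups of 3 arrays were not tested for outlying arrays.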

How the results depend on the processing

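Of 173 named genes 111 were called, and none of the 111 changed direction in the 17 alternative fits, while values near 0 that were not called did, such as SWEET11, DFR and EXPA7. Of the 111, 77 stayed called in every alternative fit other than spike scaling and the two-sample test without moderation. Spike scaling lost 42 and the test without moderation 100, while 78 were kept with each of the 6 water arrays left out. Counts moved more. Against 1610 calls (967 higher, 643 lower), spike scaling gave 462 (157 and 305), the test without moderation 140 (71 and 69), single-gene probe sets alone 708 (395 and 313), an adjusted p under 0.01 783 (445 and 338), and a difference of at least 1 besides 90 (23 and 67). Array weights gave 982 lower. The fixed replicate block gave 1352 calls and the random replicate block 1416, though the numbers do not pair the arrays. With an array left out the calls ranged from 900 to 1459 (492 to 896 higher, 388 to 610 lower). Rises were 534 and 492 without CPR5-C water replicates 2 and 3, and 618 and 614 without wild-type water replicates 2 and 3. Falls were 388 and 408 without CPR5-C water replicates 2 and 3, and 405 without wild-type water replicate 3.

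Against dexamethasone-sprayed wild type, 344 calls became 1042 with quantile normalization, 225 with spike scaling and 721 with array weights, and 209 to 277 with an array left out (210 and 209 without CPR5-C water replicates 2 and 3, 224 and 223 without wild-type dexamethasone replicates 1 and 2). Between the wild-type sprays 2065 became 987 with spike scaling and 1537 to 1799 with an array left out. Of the 38 called list members 19 were called with spike scaling, and 29 to 36 with an array left out. Fewer arrays leave fewer degrees of freedom, and for the other changes the cause was not tested. The unadjusted p was under 0.05 for 4478 probe sets. Centred values give no signal over background, so dim probe sets could not be told from bright ones.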
